A study of Mus musculus with 15 samples.

Results

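Expression of Trp53, the gene of the transcription factor p53, and of 9 genes that p53 is known to activate was followed across 6 groups of mouse embryonic stem cells (ESC). The members were taken by gene symbol and are Trp53, Cdkn1a, Mdm2, Ccng1, Trp53inp1, Phlda3, Bbc3, Zmat3, Bax and Perp. All 10 were found among the 21662 genes counted in each of 2 RNA-seq experiments, and all 10 passed the filter on low counts in both.

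The KO experiment held 9 samples, with 3 of the parental wild-type (WT) ESC and 2 each of the Hmga1 KO, Hmga1 add-back and Hmga2 add-back lines. The full-deletion experiment held 6 samples, with 3 of WT and 3 of a line in which the whole coding sequence of Hmga1 was removed. All are cells of a mixed 129Sv-C57Bl/6 background grown with LIF and serum, on feeder cells or gelatine. The samples of a group came from 1 line. The study states that 2 or more independent cultures from different days were used, but not which sample came from which culture. The Hmga1 KO is a single clone with Cas9 indels at an intron-exon junction, and the full deletion is a clone made with guides on both sides of the coding sequence. Both add-backs are selected clones of the KO in which a biotin-tagged cDNA under the ubiquitous CAG promoter was inserted at a fixed genomic site, in cells that carry the biotin ligase BirA. Hmga1 and Hmga2 are small architectural proteins that bind AT-rich DNA. Letters a, b and c of that first experiment name batches, that is, libraries prepared on the same day and run on the same flow cell. Batch c held only WT, so comparisons with batch as a term rest on batches a and b.

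p53 is kept low in unstressed cells by the ubiquitin ligase Mdm2 and is stabilised after DNA damage or other stress. It then activates genes that stop the cell cycle, such as Cdkn1a, genes that promote apoptosis, such as Bbc3 and Bax, and genes that feed back on p53 itself, such as Mdm2 and Ccng1. In mouse ESC p53 is known to be abundant and to repress Nanog after DNA damage.

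p53 binds a pair of half-sites that each have a C and a G around an A or T pair, and sequences of this kind are shown because they are the usual mark of a direct target. A match to the p53 full site, that is 2 adjacent half-sites without a spacer, was searched within 3000 bases on either side of the annotated gene start in the NCBIM37 (mm9) genome. The conserved letters of both half-sites had to match, and the consensus reads the same on both strands. With up to 1 mismatch outside the conserved letters, 3 of the 10 members held a match, beside 0.751% of 22371 protein-coding genes. The Cdkn1a match lay just upstream of the gene at chr17:29227873-29227892 (51 bases before the start) and had 1 mismatch. The Ccng1 match lay in an intron at chr11:40568438-40568457 (356 bases after the start) and also had 1 mismatch. The Zmat3 match lay in an intron at chr3:32263253-32263272 (1328 bases after the start) and had 0 mismatches, as in 0.103% of genes. In these matches, given 5′ to 3′ on the strand of the gene, the capitals mark the conserved core of each half-site.
Cdkn1a: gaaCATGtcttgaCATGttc
Ccng1: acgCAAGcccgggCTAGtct
Zmat3: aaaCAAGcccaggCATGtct
With 2 mismatches allowed, Perp joined them with 2 matches, and the share of all genes was 3.64%. A match describes the letters only, and no match in this window says nothing of p53 binding elsewhere. Cdkn1a lies on the same chromosome as Hmga1, with its start 1527305 bases beyond the end of Hmga1, and the other 9 members lie on chromosomes 1, 3, 4, 7, 10 and 11.

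Depth was between 13465399 and 34952136 counts in the KO experiment, with batch b between 13465399 and 14585417 and batch a between 30742898 and 34952136. It was between 14832310 and 21708492 in the full-deletion experiment, where WT b stood apart, with 8.78% of its counts in 10 genes against 4.67% to 5.38% in the others and a normalization factor of 0.752. Levels are given as CPM, the count of a gene scaled to the same total in each library after TMM normalization within an experiment, and are not compared between experiments. Hmga1 itself had 464, 276 and 221 CPM in the WT libraries a, b and c, against 217 and 96.1 CPM in KO a and b. In the line labelled Hmga1 add-back it had 184 and 123 CPM in a and b, so the Hmga1 count was not above that of KO in batch a. It was not determined here whether reads of the inserted tagged cDNA are counted in this gene, and these data hold no protein level. By Western blot, the study reported Hmga1 protein in its Hmga1 add-back line at a level comparable to that of WT. Any direction given below for this line is that of the libraries so labelled. Hmga2 had 249 and 222 CPM in the Hmga2 add-back against 12.8 to 23.8 CPM in the other libraries of that experiment. Hmga1 had 310 to 357 CPM in WT and 10.9 to 12.3 CPM in the full deletion. Pluripotency genes were high in all 15 libraries, the 8 markers summing to between 3567 and 6198 CPM. Genes of feeder fibroblasts summed to between 4.96 and 23.7 CPM over the 9 markers counted. Among them, Thy1 reached 11.7 CPM, Col1a1 stayed between 0.181 and 1.26 CPM, and Dcn was at 0 in every library but WT c of the KO experiment.

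Per exon length, the order of the members in WT of the KO experiment ran from Trp53 to Cdkn1a. The mean level of Trp53 was 96.6 ± 39.5 RPKM (SD, n = 3) and that of Ccng1 was 80.6 ± 3.12 RPKM (SD, n = 3), which did not differ beyond their spread. Below them stood Mdm2 at 46.2 ± 2.45, Bax at 39.7 ± 0.960, Trp53inp1 at 30.6 ± 6.49 and Phlda3 at 19.1 ± 1.44 RPKM (SD, n = 3 each). The lowest were Perp at 11.9 ± 1.56, Zmat3 at 10.2 ± 3.35, Bbc3 at 7.37 ± 1.35 and Cdkn1a at 4.24 ± 1.48 RPKM (SD, n = 3 each). Of these, Perp and Zmat3 overlapped in their spread, and so did Zmat3 and Bbc3. In WT of the full-deletion experiment Trp53 was again highest, at 101 ± 24.1 RPKM, and Cdkn1a had the lowest mean, at 2.94 ± 0.9996 RPKM, which overlapped in its spread with that of Zmat3 at 3.74 ± 0.933 RPKM (SD, n = 3 each).

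The KO experiment asks whether loss of Hmga1 changes transcription in ESC. It also holds the add-backs, which the study made to compare binding with and without endogenous Hmga1, and whose RNA was compared with WT. With batch as a term, none of the 10 members passed the test in any of its 5 contrasts (edgeR quasi-likelihood test, Benjamini-Hochberg adjusted p under 0.05 over 13912 genes). Very few genes passed at all, so this count is near the background. The share of all genes called was 0.0647% in KO against WT, 0% in the labelled Hmga1 add-back against KO and 0.0144% in the Hmga2 add-back against KO. It was 0.0431% in the labelled Hmga1 add-back against WT and 0.165% in its Hmga2 counterpart against WT. At an unadjusted p under 0.05, 1 member (Perp) was found in KO against WT and 1 (Ccng1) in the Hmga2 add-back against KO, and none in the other 3 contrasts. DESeq2 and limma called no member in these contrasts either. Behind these counts lay a wide spread between batches a and b of the same line, given below gene by gene.

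**Figure D1:**
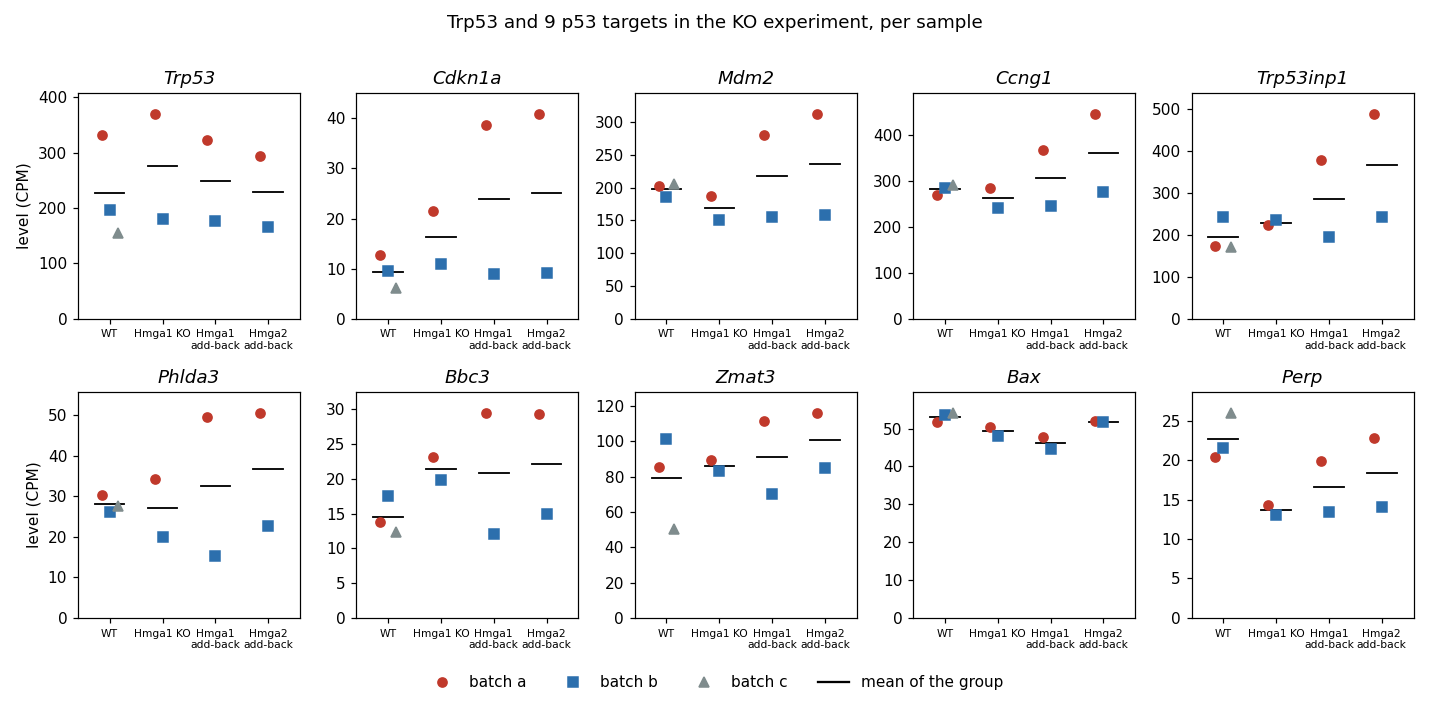
Level of each of the 10 genes in the 9 samples of the KO experiment, in CPM on axes that start at 0. Each point is a sample, coloured by batch, and the bar is the mean of the group. The batch a samples of both add-backs stand above all WT samples for Cdkn1a, Mdm2, Ccng1, Trp53inp1, Phlda3, Bbc3 and Zmat3, and the batch b samples do not.

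Trp53 differed more between batches than between lines. It had 333, 196 and 154 CPM in WT a, b and c, 371 and 180 CPM in KO a and b, 323 and 176 CPM in the labelled Hmga1 add-back and 294 and 166 CPM in the Hmga2 add-back. Each batch a sample was above each sample of batch b and c, whatever the line. Within batches a and b the Hmga2 add-back was the lowest line, at 0.791 and 0.926 times KO. With batch as a term the log2 fold change in KO against WT was 0.02 (SE 0.11, adjusted p = 0.965, edgeR), and against WT it was -0.10 (SE 0.11) in the labelled Hmga1 add-back and -0.21 (SE 0.11) in the line with Hmga2.

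Cdkn1a encodes p21, the inhibitor of cyclin-dependent kinases through which p53 stops the cell cycle. It had 12.7, 9.47 and 6.10 CPM in the WT libraries a, b and c, against 21.5 and 11.0 CPM in KO a and b. It had 38.7 and 8.92 CPM in the labelled Hmga1 add-back and 41.0 and 9.08 CPM in the Hmga2 add-back. In batch a it was thus 3.06 times its WT level in the labelled Hmga1 add-back, 3.24 times in the Hmga2 add-back and 1.70 times in KO. In batch b the same ratios were 0.943, 0.960 and 1.16. With batch as a term the log2 fold change against WT was 0.48 (SE 0.40) in KO, 0.85 (SE 0.40) in the labelled Hmga1 add-back and 0.91 (SE 0.40) in the one with Hmga2, with adjusted p = 0.648, 0.410 and 0.302 (edgeR). These values depended on 1 WT library. Without WT b, which leaves batch a to set the WT level, they were 1.12, 1.48 and 1.54, and Cdkn1a was called in both add-backs (adjusted p = 0.0448 and 0.0331, edgeR), where 817 and 1318 of 13912 genes were. Without WT a they were -0.20, 0.14 and 0.21, and none was called.

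The genes of p53 feedback showed the same split at a higher level of expression. Mdm2, which marks p53 for degradation, had 203, 186 and 205 CPM in WT, 188 and 151 CPM in KO, 281 and 155 CPM in the labelled Hmga1 add-back and 313 and 158 CPM in the Hmga2 add-back. Ccng1, which encodes cyclin G1, a partner of the phosphatase that acts on Mdm2, had 269, 285 and 290 CPM in WT, 284 and 241 CPM in KO, 368 and 244 CPM in the labelled Hmga1 add-back and 446 and 276 CPM in the Hmga2 add-back. For both genes the 3 WT samples lay close together, the batch a add-backs stood above them and Mdm2 was below them in every batch b sample of the other lines. In batch a Mdm2 was 1.38 times its WT level in the labelled Hmga1 add-back and 1.54 times in the Hmga2 add-back, and 0.835 and 0.848 times in batch b. Against KO, the smallest p among the members was that of Ccng1 in the Hmga2 add-back, with a log2 fold change of 0.43 (SE 0.18) with adjusted p = 0.877 (edgeR).

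Trp53inp1 and Phlda3 also parted by batch. Trp53inp1, a stress-induced cofactor that promotes the apoptotic activity of p53, had 173, 244 and 171 CPM in WT, 224 and 236 CPM in KO, 379 and 195 CPM in the labelled Hmga1 add-back and 490 and 243 CPM in the Hmga2 add-back. WT b was its highest WT sample, and in batch a the Hmga2 add-back reached 2.83 times WT. With batch as a term its log2 fold change in the Hmga2 add-back against WT was 0.73 (SE 0.34, adjusted p = 0.315, edgeR). Without WT b this was 1.33 and called (adjusted p = 0.0380), and without WT a it was 0.21 and not called. Phlda3, a repressor of the kinase Akt, had 30.3, 26.1 and 27.7 CPM in WT, 34.2 and 19.9 CPM in KO, 49.7 and 15.3 CPM in the labelled Hmga1 add-back and 50.7 and 22.6 CPM in the Hmga2 add-back. Its batch a samples were above all WT samples in each line made from the KO and its batch b samples below all of them.

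Among the apoptotic genes, Bbc3 and Bax behaved differently. Bbc3 encodes Puma, a BH3-only protein that neutralises the anti-apoptotic Bcl-2 proteins. It had 13.8, 17.5 and 12.4 CPM in WT, 23.1 and 19.8 CPM in KO, 29.5 and 12.1 CPM in the labelled Hmga1 add-back and 29.4 and 14.998 CPM in the Hmga2 add-back. The 2 KO samples were above the 3 WT samples, yet the log2 fold change of 0.43 (SE 0.34) did not pass the test (adjusted p = 0.626, edgeR). Bax, which forms pores in the mitochondrial membrane, had 51.8, 53.6 and 54.2 CPM in WT and between 44.5 and 52.0 CPM in the 6 samples of the other lines. It showed the least spread of the members, with no separation by batch.

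Zmat3 and Perp complete the set. Zmat3, an RNA-binding zinc finger protein, had 85.7, 101 and 50.5 CPM in WT, 89.2 and 83.1 CPM in KO, 112 and 70.2 CPM in the labelled Hmga1 add-back and 116 and 85.1 CPM in the Hmga2 add-back. Its WT samples alone spanned from the lowest value of the experiment to above KO, so the groups overlapped. Perp, a tetraspan membrane protein of desmosomes that also acts in p53-dependent apoptosis, had 20.4, 21.6 and 26.0 CPM in WT, 14.3 and 13.1 CPM in KO, 19.9 and 13.4 CPM in the labelled Hmga1 add-back and 22.8 and 14.0 CPM in the Hmga2 add-back. Both KO samples were below all WT samples, and the log2 fold change was -0.62 (SE 0.21), the smallest p among the members in this contrast (unadjusted p = 0.0167, adjusted p = 0.309, edgeR). In KO against WT the samples did not overlap for 1 member that was higher (Bbc3), beside 13% of all genes, and for 2 that were lower (Bax and Perp), beside 10.5% of all genes.

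Within batches, most members of the add-backs lay above the WT library of their own batch in a and below it in b. In batch a, 7 of 10 were above WT in KO, 7 of 10 in the labelled Hmga1 add-back and 9 of 10 in the Hmga2 add-back, with median log2 ratios of 0.12, 0.46 and 0.68. In batch b, 2 of 10 were above WT in KO and 0 of 10 in either add-back, with medians of -0.20, -0.30 and -0.22. The medians over all genes lay between -0.01 and 0.01 in all 6 comparisons. There is 1 library of a line in each batch, and the 3 lines of a batch share the same WT library, so these ratios have no replicate check and the lines are not independent of each other.

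A ratio of at least 2 was reached in batch a by 3 members (Cdkn1a, Trp53inp1 and Bbc3) in each add-back. The share of all genes at or above that ratio was 9.03% in the labelled Hmga1 add-back and 9.09% in that of Hmga2. In KO no member reached it in batch a, where 5.81% of genes did. In batch b no member reached it in any line, beside 3.74% of genes in KO, 3.35% in the labelled Hmga1 add-back and 4.09% in that of Hmga2.

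**Figure D2:**
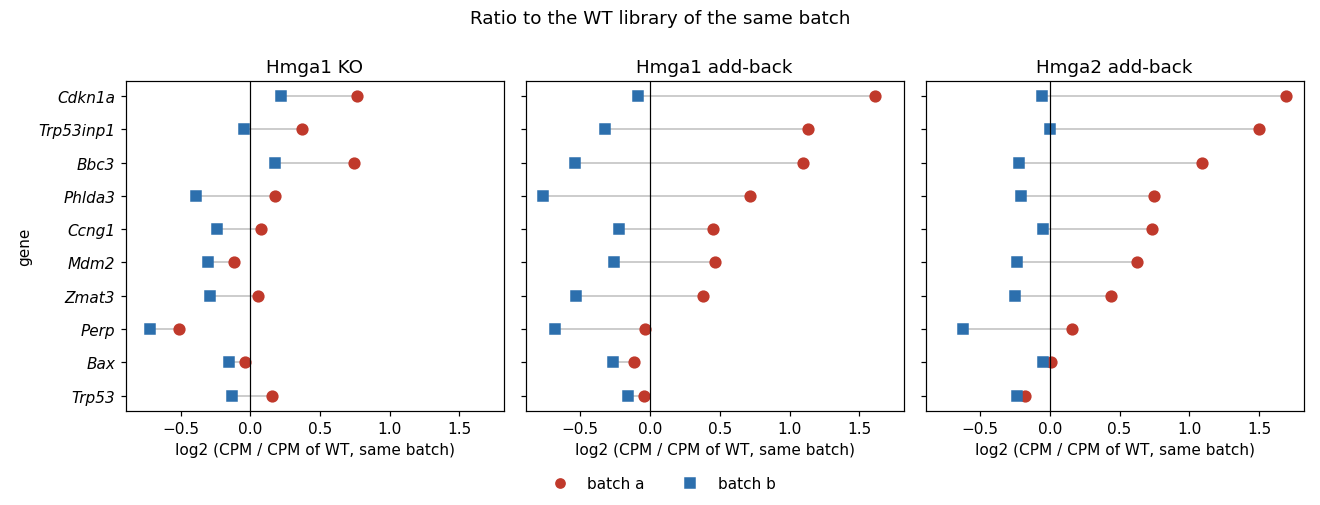
Log2 ratio of each gene to the WT library of the same batch, for the 3 lines made from WT by Hmga1 KO and add-back. Red circles are batch a and blue squares batch b, with 1 library each. In the add-backs the distance between the batches is widest for Cdkn1a, Trp53inp1, Bbc3 and Phlda3 and narrowest for Bax and Trp53.

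The difference between batches was also fitted as a term of its own, the change of the KO, labelled Hmga1 add-back and Hmga2 add-back lines together relative to WT in batch a minus that in batch b. This fit was added after the pattern was seen. The term was above 0 for all 10 members, with a median of 0.62 on the log2 scale against -0.01 over all genes. It was 1.34 (SE 0.46) for Cdkn1a, 1.16 (SE 0.38) for Bbc3, 1.13 (SE 0.38) for Trp53inp1 and 0.996 (SE 0.32) for Phlda3. It was 0.65 (SE 0.23) for Zmat3, 0.59 (SE 0.26) for Mdm2, 0.59 (SE 0.21) for Ccng1 and 0.55 (SE 0.27) for Perp, but 0.15 (SE 0.17) for Trp53 and 0.11 (SE 0.17) for Bax. No member was called, the adjusted p lying between 0.287 and 0.806 (edgeR), where 0.0503% of all genes were. At an unadjusted p under 0.05, 7 of 10 members were higher in batch a, beside 6.98% of all genes. The calls depended on the KO libraries, since without KO a or without KO b 7 members were called, with 1036 and 1132 of 13912 genes called overall. Batch a was also the more deeply sequenced in WT and in each other line. WT a and WT b each enter every value of this term, and the fit cannot be made without either of them.

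Other p53 targets, taken from lists, also lay higher relative to WT in batch a than in batch b, on median. Of 43 other p53 targets, 42 were tested. None was called in any contrast of the KO experiment. Their median log2 ratio to WT in batch a was 0.17 in KO, 0.42 in the labelled Hmga1 add-back and 0.45 in that of Hmga2, with 29, 33 and 33 of 42 above WT. In batch b the medians were -0.08, -0.14 and -0.09, with 19, 15 and 14 of 42 above WT. In batch a 6 of them were at least 2-fold above WT in the labelled Hmga1 add-back and 7 in that of Hmga2, beside 9.03% and 9.09% of all genes. In batch b none was in either add-back, beside 3.35% and 4.09% of all genes, and 1 and 2 were at least 2-fold below WT.

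The targets at least 2-fold above WT in a batch a add-back, named after their values were seen, came from the arrest, apoptosis and metabolism lists. Ephx1, which encodes a microsomal epoxide hydrolase, had 6.20, 5.12 and 5.19 CPM in WT a, b and c, 26.7 and 6.99 CPM in KO, 47.4 and 4.12 CPM in the labelled Hmga1 add-back and 50.3 and 7.68 CPM in the Hmga2 add-back. Btg2, an anti-proliferative gene, had 35.9, 35.8 and 41.3 CPM in WT, 41.8 and 30.6 CPM in KO, 86.1 and 31.3 CPM in the labelled Hmga1 add-back and 108 and 32.4 CPM in the Hmga2 add-back. In both genes the batch a add-backs stood above every other library of the experiment, and the batch b add-backs did not. Ptprv, a phosphatase gene, was 2.65 times WT in the labelled Hmga1 add-back and 3.46 times in the Hmga2 add-back in batch a, and the others were Ddit4, Trp53i11, Tap1 and, in the Hmga2 add-back alone, Plk2. Ddit4, an inhibitor of the growth kinase mTOR, was also 2.32 times WT in KO in batch b.

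**Figure D3:**
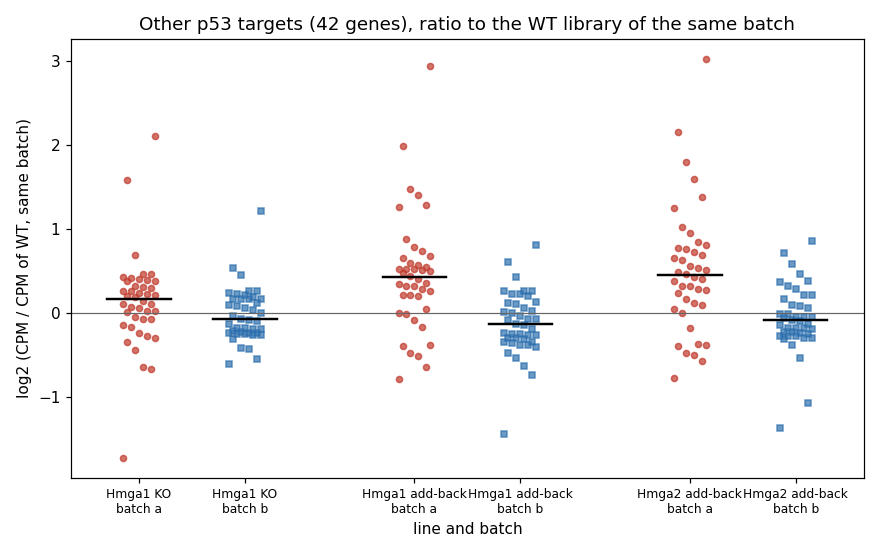
Log2 ratio of 42 other p53 targets to the WT library of the same batch, for each line in batch a (red circles) and batch b (blue squares). Each point is a gene in 1 library, and the bar is the median. The medians lie between 0.17 and 0.45 in batch a and between -0.14 and -0.08 in batch b.

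Regulators of p53 had medians below 0 in every line and batch, and cell cycle genes in all but KO in batch a. Of 19 regulators of p53, 6 and 7 were above WT in batch a in the labelled Hmga1 and the Hmga2 add-back, with medians of -0.13 and -0.08. Their medians lay between -0.06 and -0.02 in KO and in the batch b add-backs. Of 12 cell cycle genes known to fall when p53 acts through p21, 2 and 3 were above WT in the batch a add-backs, with medians of -0.09 and -0.14, and 4 and 4 in those of batch b, with medians of -0.09 and -0.11. In KO 7 were above WT in batch a, with a median of 0.04, and 4 in batch b, with a median of -0.07. The batch a minus batch b term had a median of 0.08 for the regulators (11 of 19 above 0) and of -0.01 for the cell cycle genes (6 of 12 above 0). None of the genes of either list was called in the KO experiment. Marker lists of other cells also differed from WT, and not only in batch a. Of 7 tested markers of differentiating cells, 6 were at least 2-fold below WT in batch a in each add-back, with medians of -1.76 and -1.62, and in batch b 1 and 4 were, with medians of 0.54 and -1.36. In KO 5 of the 7 were in batch a, with a median of -1.99, and 1 in batch b, with a median of -0.31. The batch a minus batch b term of that list had a median of -1.42, with 1 of 7 above 0. The feeder list summed to 23.4 and 23.7 CPM in the batch a add-backs against 6.44 to 14.9 CPM in the other libraries of that experiment. All 4 tested markers of that list were above WT in batch a in each of those 2 libraries, with medians of 1.18 and 0.91. In KO 3 of 4 were in batch a, with a median of 0.47. In batch b all 4 were above WT in KO and in both add-backs, with medians of 0.98, 0.57 and 0.60. The batch a minus batch b term of the feeder list had a median of 0.27, with 3 of 4 above 0. Col1a1 had 1.26 and 0.977 CPM in the batch a add-backs, against 0.538 CPM in WT a. Most of the sum in those 2 libraries lay in Thy1, Fbln2 and Pdgfrb, and Col3a1 and Dcn were at or below 0.0574 CPM there. The part of either list in the result was not tested. In bulk samples, fewer cells of a type and less RNA per cell cannot be told apart.

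The full-deletion experiment asks the same question with the coding sequence of Hmga1 gone. Of the members, 1 passed the test in the full deletion against WT, Perp, which fell. The share of all genes called was 8.25% (1080 of 13098, 586 higher and 494 lower), so this count is near the background. Of the 10 members, 7 had a positive log2 fold change and 3 a negative one, with a median of 0.40 against 0.04 over all genes. Without WT b the median of the members was 0.25, against 0.03 over all genes.

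Perp had 12.7, 18.3 and 12.5 CPM in the WT libraries a, b and c, against 7.38, 8.77 and 8.50 CPM in the full deletion. Every deletion sample was below every WT sample, and WT b was the highest. The log2 fold change was -0.81 (SE 0.18, adjusted p = 0.0419, edgeR). The call was close to the threshold and was lost in 4 of the 6 fits that left out 1 sample, each with WT b still in (WT c, or any 1 deletion sample, adjusted p between 0.0763 and 0.177), but held without WT a (adjusted p = 0.0465) and without WT b (log2 fold change -0.61, adjusted p = 0.000492). It was also lost with the letters as a replicate block (adjusted p = 0.0516) and with summed counts as scaling (-0.50, adjusted p = 0.0743).

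**Figure D4:**
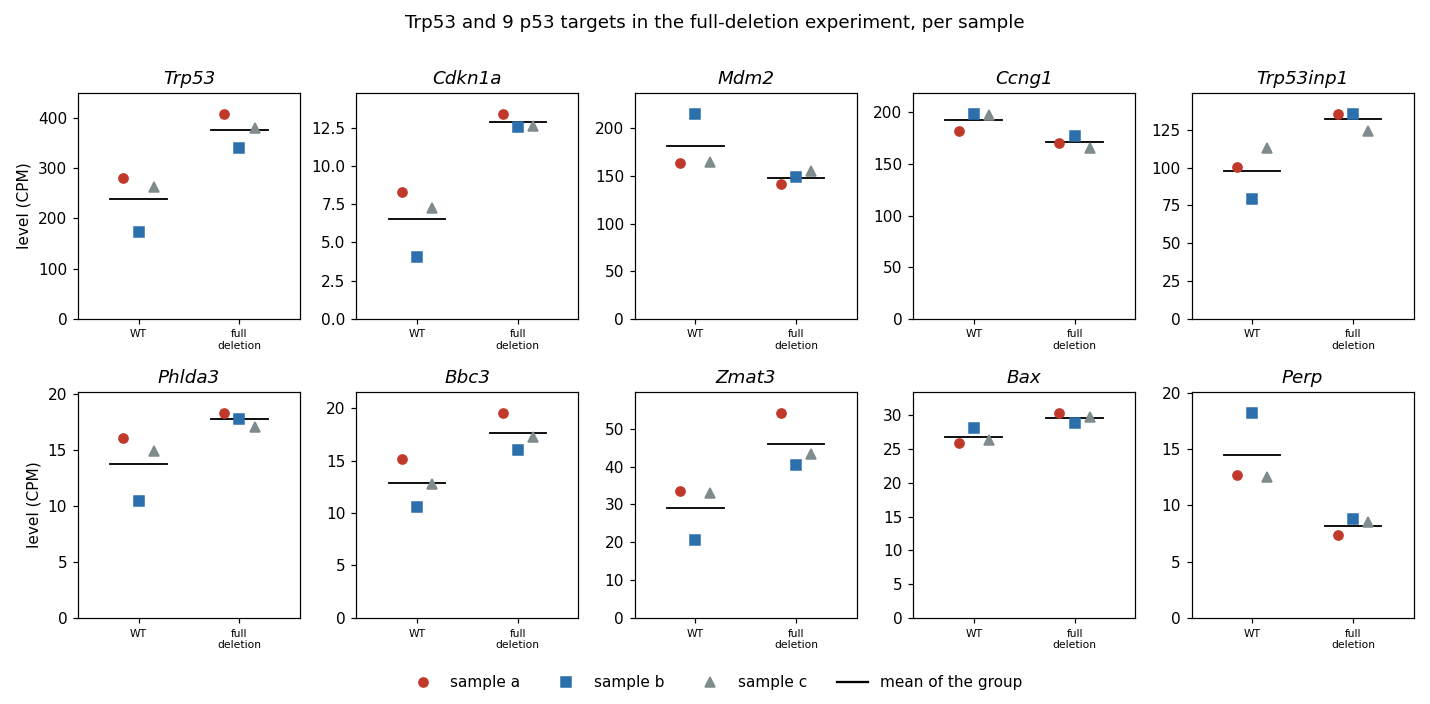
Level of each of the 10 genes in each WT and full-deletion sample (n = 3 each), in CPM on axes that start at 0. Points are samples and bars are group means. No WT and deletion samples overlap in any panel, and WT b lies farthest from the deletion samples for 9 of the 10 genes, Bax being the exception.

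Cdkn1a, Trp53 and Zmat3 stood highest relative to WT. Cdkn1a had 8.30, 4.04 and 7.23 CPM in WT and 13.4, 12.6 and 12.6 CPM in the full deletion, a log2 fold change of 0.97 (SE 0.24, adjusted p = 0.0515, edgeR). Trp53 had 280, 174 and 262 CPM in WT and 409, 340.5 and 379 CPM in the full deletion, a log2 fold change of 0.66 (SE 0.19, adjusted p = 0.0648, edgeR). Zmat3 had 33.5, 20.7 and 33.0 CPM in WT and 54.3, 40.5 and 43.3 CPM in the full deletion, a log2 fold change of 0.66 (SE 0.21, adjusted p = 0.0732, edgeR). In all 3 the deletion samples were above all WT samples and WT b was the lowest library, and none of the 3 passed the test.

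The other members moved less. Trp53inp1 had 100.2, 79.5 and 113 CPM in WT and 136, 135 and 125 CPM in the full deletion, a log2 fold change of 0.44 (SE 0.14). Bbc3 had 15.1, 10.5 and 12.8 CPM in WT and 19.6, 16.0 and 17.3 CPM in the full deletion, a log2 fold change of 0.45 (SE 0.16). Phlda3 had 16.0, 10.4 and 14.9 CPM in WT and 18.3, 17.8 and 17.1 CPM in the full deletion, a log2 fold change of 0.36 (SE 0.17). For these genes too WT b was the lowest sample, and the adjusted p lay between 0.0781 and 0.163 (edgeR). Bax had 25.9 to 28.1 CPM in WT and 28.8 to 30.4 CPM in the full deletion, a log2 fold change of 0.15 (SE 0.10).

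The feedback genes Mdm2 and Ccng1 lay on the other side, with Perp. Mdm2 had 164, 216 and 164 CPM in WT and 141, 148 and 155 CPM in the full deletion, a log2 fold change of -0.29 (SE 0.13, adjusted p = 0.158, edgeR). Ccng1 had 182, 199 and 197 CPM in WT and 170, 177 and 166 CPM in the full deletion, a log2 fold change of -0.17 (SE 0.10, adjusted p = 0.221, edgeR). Neither passed the test, and with summed counts in place of TMM, which moved the median of all genes from 0.04 to 0.32, both turned to 0.02 and 0.11. With TMM, Cdkn1a, Zmat3, Bbc3, Trp53inp1, Phlda3 and, at 0.15, Bax lay above WT here, and Mdm2 and Ccng1 did not. In the batch a add-backs of the KO experiment Mdm2, Ccng1 and these targets other than Bax, 7 in all, lay above WT. Bax was 0.925 times WT in the labelled Hmga1 add-back of batch a and 1.004 times in that of Hmga2. In KO against WT, with batch as a term, Mdm2 and Ccng1 also lay below 0, at -0.22 and -0.10. So did Zmat3 and Phlda3, both at -0.13, and Bax, at -0.09. Cdkn1a, Bbc3 and Trp53inp1 lay above 0 there, at 0.48, 0.43 and 0.12, and none of these genes was called.

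For all 10 members the WT and deletion samples did not overlap, 7 being higher and 3 lower. Over all genes 26.7% did not overlap in the higher and 24.6% in the lower direction. The library WT b widened the spread of WT for most of these genes. Without it 8 members were called, 5 higher (Trp53 at 0.47, Cdkn1a at 0.73, Trp53inp1 at 0.31, Bbc3 at 0.33 and Zmat3 at 0.46 on the log2 scale) and 3 lower (Mdm2 at -0.15, Ccng1 at -0.15 and Perp at -0.61). The share of all genes called was then 42.7%, and the fold changes were smaller than with all samples for 9 of the 10 members, Bax being the exception. With all samples DESeq2 called 5 members, adding Cdkn1a, Trp53, Zmat3 and Trp53inp1 to Perp, where it called 3239 of 13098 genes.

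**Figure D5:**
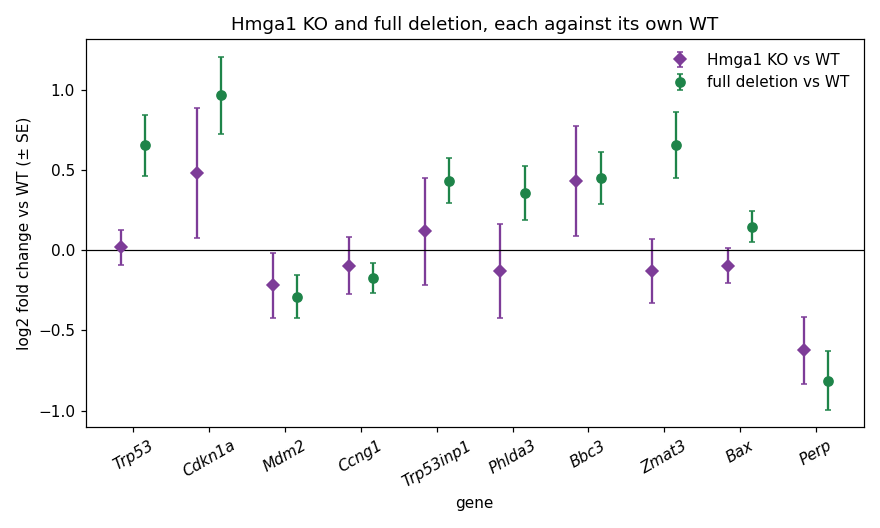
Log2 fold change of each gene against its own WT in the Hmga1 KO (purple diamonds, batch as a term) and in the full deletion (green circles), with standard errors from edgeR's quasi-likelihood fit. Perp is below 0 in both, at -0.62 and -0.81, while Trp53 and Zmat3 are both at 0.66 in the full deletion and at 0.02 and -0.13 in the KO.

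The effects of the 2 ways of removing Hmga1 were compared directly, in a fit of all 15 samples. No member differed between them (0 of 10 called by edgeR, where 0.375% of 13050 genes were). At an unadjusted p under 0.05, 2 members were found, and DESeq2 called none. These were Trp53, with a difference of 0.63 on the log2 scale (SE 0.24, unadjusted p = 0.0239, adjusted p = 0.241), and Zmat3, with 0.78 (SE 0.31, unadjusted p = 0.0285, adjusted p = 0.245). The difference for Perp was -0.20 (SE 0.30) and that for Cdkn1a 0.48 (SE 0.50), so that neither an equal nor a different response is shown.

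Of the 42 other p53 targets tested in the full deletion, 4 rose and none fell, a share near the 8.25% of all genes called, with 25 of 42 above 0 and a median log2 fold change of 0.16 against 0.04 over all genes. They were Abhd4, a lipase, at 0.78 (SE 0.11, adjusted p = 0.0202), Ephx1 at 0.87 (SE 0.13, adjusted p = 0.0227), Ddit4 at 1.37 (SE 0.26, adjusted p = 0.0322) and Ddb2, a sensor of ultraviolet DNA damage, at 0.84 (SE 0.20, adjusted p = 0.0458), all from edgeR. Of the 19 regulators of p53, 2 fell and none rose, again near that background. Atm, the kinase that activates p53 after double-strand breaks, had a log2 fold change of -0.54 (SE 0.10, adjusted p = 0.0293) and Ppm1d, a phosphatase that turns p53 off, one of -0.67 (SE 0.16, adjusted p = 0.0479, both from edgeR). None of the 12 cell cycle genes passed the test. Ddb2, Ppm1d and Fbln2 were named after their values were seen, to complete these counts. Like that of Perp, the calls of Abhd4, Ephx1, Ddit4, Atm and Ppm1d were lost in 4 of the 6 fits that left out 1 sample (WT c or any 1 deletion sample), and those of Ddb2 and Fbln2 in 5, holding only without WT b; these fits of list genes were added after seeing the data. One marker of the feeder list also rose, Fbln2, at 1.05 (SE 0.21, adjusted p = 0.0356, edgeR). The list summed to 10.5 to 11.5 CPM in the deletion and 4.96 to 8.21 CPM in WT. All 3 tested markers of the list had a log2 fold change above 0, and Dcn was at 0 in all 6 libraries. The part of the list in the result was not tested.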

How the data were processed

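Values were raw counts per gene deposited by the authors. They demultiplexed with bcl2fastq 2.17 per the labels, aligned reads with QuasR and Bowtie to mm9 and counted same-strand reads on the exons of known genes. The members and gene lists were chosen with earlier results of these data known, and 0 columns were left without a sample. Genes whose counts averaged 10 or more were tested with edgeR 4.0.16 (TMM, quasi-likelihood) in R 4.3.3, called at a Benjamini-Hochberg adjusted p under 0.05 with no minimum fold. All groups of an experiment shared one fit. The batch letter was a term in the KO experiment, as in the study, where same-letter samples deviated together (correlation between 0.319 and 0.758 over 12 pairs), and not in the full-deletion experiment (-0.0546 to 0.0703 over 3 pairs). All 10 members were named. The rule for list genes was to name at most 5 called ones with the lowest adjusted p per comparison. Further list genes, called or not, were named after their values were seen. RPKM used exon lengths of the files. DESeq2 1.42.0 and limma 3.58.1 were alternatives. The fit was tested on simulated data. Gene positions came from GENCODE on NCBIM37. P-values measure the spread between samples of single lines. Whether each sample of a group was a culture of its own is not stated. Deletion samples differed little from each other (chi-squared of counts per degree of freedom 3.88 to 6.45), and so did WT a and c of that experiment (5.53). Samples of a line in the KO experiment, which were of different batches, differed more (45.9 to 95.3).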

Additional observations from a re-analysis of the deposited data

Results flagged for a closer look

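For 4 members all 3 lines made from the KO lay above WT in batch a and below WT in batch b. They were Trp53inp1, Phlda3, Zmat3 and Ccng1, with a difference between batches of 1.13, 0.996, 0.65 and 0.59 on the log2 scale. The difference was tested with a term added after the pattern was seen, and none of the 4 passed (adjusted p between 0.287 and 0.321, edgeR). Each line has 1 library in each batch, and all share WT a and WT b.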

How the results depend on the processing

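Counts of members called stayed at 0 under all alternatives for KO against WT, for both add-backs against KO and for the full-deletion effect minus the KO effect. Without WT b, 1 member was called in the labelled Hmga1 add-back and 2 in that of Hmga2 against WT, so leaving out 1 sample gave 0 to 1 and 0 to 2. For the term of batch a minus batch b the counts were 0 to 7. In the full deletion, 1 member called became 0 under the study's rule (adjusted p under 0.01 and 2-fold), 0 with summed counts, 2 with no filter, 5 with DESeq2, 0 with the replicate block and 0 to 8 when 1 sample was left out. Without WT b, DESeq2 called 7 and limma 8 members. The blocked fit of the full deletion used letters that mark no pairing, and it changed no other call of a member there than that of Perp. In the KO experiment the fit with no replicate block called 0 members in each contrast.

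Over all genes, DESeq2 called 199 genes against 9 in the main test in KO against WT, 14 against 0 and 19 against 2 in the labelled Hmga1 and the Hmga2 add-back against KO, and 201 against 6 and 336 against 23 in the same lines against WT. It called 3239 against 1080 in the full deletion, 329 against 49 for the full-deletion effect minus the KO effect and 115 against 7 for the batch term. With no filter the counts became 93 in KO, 6 in the Hmga2 add-back against KO, 70 and 98 in the add-backs against WT and 59 for the batch term. With only the groups compared they became 3, 21, 4, 14 and 409 in the 5 contrasts in the order above, and with no replicate block 23 in KO, 1 in the Hmga2 add-back against KO and 2 and 8 against WT. Summed counts gave 664 (544 higher) in the full deletion, against 586 higher of 1080, and 26 for the difference of effects, the replicate block gave 396 in the full deletion, limma 5 in the Hmga2 add-back against KO and 15 in the labelled Hmga1 add-back against WT, where DESeq2 size factors gave 12. Leaving out 1 sample gave 1 to 741 in KO, 0 to 6 in the Hmga2 add-back against KO, 2 to 817 and 7 to 1318 in the add-backs against WT, 3 to 5590 in the full deletion, 7 to 670 for the difference of effects and 2 to 1132 for the batch term.

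Some small log2 differences changed sign, and the cause was not tested. With DESeq2 size factors Bbc3 was -0.00054 in the Hmga2 add-back against KO and -0.024 in the full-deletion effect minus the KO effect. With no filter these were -0.0023 and -0.019, with DESeq2 -0.014 and -0.0094, with limma -0.029 and -0.0050, and with no replicate block the second was -0.12. Phlda3 in the labelled Hmga1 add-back against WT was -0.017 with DESeq2 and -0.025 with limma. With summed counts, Bax in the Hmga2 add-back against WT was 0.031, Mdm2 and Ccng1 in the full deletion were 0.017 and 0.11, and Mdm2, Ccng1 and Perp in the full-deletion effect minus the KO effect were 0.22, 0.20 and 0.11. With no replicate block, Zmat3 was 0.12 in KO and 0.20 in the labelled Hmga1 add-back against WT, and Trp53 was 0.13 and 0.014 in the labelled Hmga1 and the Hmga2 add-back against WT.

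When 1 sample was left out, values that changed sign ranged as follows. In KO against WT, Trp53 went from -0.093 to 0.13, Cdkn1a from -0.20 to 1.12, Mdm2 from -0.49 to 0.10, Ccng1 from -0.36 to 0.22, Trp53inp1 from -0.36 to 0.76, Phlda3 from -0.61 to 0.38, Bbc3 from -0.12 to 1.04 and Zmat3 from -0.43 to 0.21. In the labelled Hmga1 add-back against KO, Cdkn1a went from -0.19 to 0.74, Trp53inp1 from -0.18 to 0.65, Phlda3 from -0.42 to 0.57, Bbc3 from -0.69 to 0.32 and Zmat3 from -0.26 to 0.32. In the Hmga2 add-back against KO, Cdkn1a went from -0.16 to 0.83 and Bbc3 from -0.31 to 0.27. In the labelled Hmga1 add-back against WT, Mdm2 went from -0.19 to 0.40, Ccng1 from -0.18 to 0.41, Trp53inp1 from -0.15 to 0.98, Phlda3 from -0.53 to 0.52, Bbc3 from -0.25 to 0.91 and Zmat3 from -0.39 to 0.26. In the Hmga2 add-back against WT, Mdm2 went from -0.082 to 0.50, Phlda3 from -0.22 to 0.77, Bbc3 from -0.13 to 1.02, Zmat3 from -0.22 to 0.42, Bax from -0.067 to 0.031 and Perp from -0.48 to 0.059. In the full-deletion effect minus the KO effect, Cdkn1a went from -0.19 to 1.13, Mdm2 from -0.40 to 0.18, Ccng1 from -0.39 to 0.18, Trp53inp1 from -0.33 to 0.78, Phlda3 from -0.032 to 0.95, Bbc3 from -0.60 to 0.55 and Perp from -0.47 to 0.063.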

Other observations

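Relatives of the members were taken from lists and were tested with the same fits. Of 10 tested paralogs of members, 1 rose and 1 fell in the full deletion against WT, where 8.25% of all genes were called. Trp53inp2, a relative of Trp53inp1, rose by 0.98 on the log2 scale (SE 0.23, adjusted p = 0.0467), and Cdkn1c, which encodes p57, a relative of p21 and an imprinted inhibitor of cyclin-dependent kinases, had a log2 fold change of -1.13 (SE 0.10, adjusted p = 0.00913, both from edgeR). Of 9 other genes of the Bcl-2 family, Bmf, a BH3-only gene, rose by 1.07 (SE 0.22, adjusted p = 0.0383, edgeR) and none fell. The calls of Cdkn1c and Bmf were lost in 4 of the 6 fits that left out 1 sample (WT c or any 1 deletion sample), and that of Trp53inp2 in 5, holding only without WT b. No gene of either list was called in the KO experiment, where Cdkn1c had a log2 fold change of -1.28 in KO (SE 0.34, adjusted p = 0.202) and Bmf one of 0.79 (SE 0.30, adjusted p = 0.362, both from edgeR). Cdkn1c had the lowest adjusted p of all list genes in the full deletion, and the others here were named after their values were seen. Genes of differentiating cells summed to between 47.0 and 82.9 CPM in WT of the KO experiment and to between 24.7 and 35.1 CPM in the other lines, with no gene called.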
